A study of Mus musculus with 15 samples.

Results

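Sorted brain mural cells of mice without Notch3 were compared with the same preparation from mice that keep 1 copy of the gene. The comparison rests on 9 of the 15 arrays of the series: 4 Notch3 +/- arrays, lettered E, G, H and I, and 5 Notch3 -/- arrays, lettered A, B, C, D and F, with all members taken by genotype and tissue from the sample titles. Each array held biotin-labelled RNA of brain cells that the labels call SMC/pericyte, collected by FACS from a male C57BL6J mouse 10 to 12 weeks old, 1 mouse per array by the design text. The controls thus lack 1 copy of Notch3 themselves, wild-type arrays were not used here, and a difference is that between no copy and 1 copy. The other 6 arrays, 3 of aorta explants from each of the same genotypes, are used only for values set beside those of brain. The sources used here do not say how the allele was disrupted or which marker the sort used. The values are scaled intensities in arbitrary units. Differences are log2(value + 16) in Notch3 -/- minus Notch3 +/-, which understates the change of dim probe sets.

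Mural cells, the smooth muscle cells and pericytes that surround vessels, are contacted by endothelial cells that present Notch ligands such as Jagged1. Binding releases the intracellular part of Notch3, which joins the DNA-binding protein RBPJ in the nucleus and switches on target genes, and in arteries this signal is known to be needed for the mature smooth muscle state. That state rests on myosin and actin filaments, on the calcium stores and channels that trigger them, and on the kinase and phosphatase that set the phosphorylation of myosin, with many of the genes carrying binding sites for SRF, known as CArG boxes.

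The preparation held RNA of mural cells, and of other cells as well. Acta2, the smooth muscle actin, read 9728 to 30846 over the 9 arrays and Rgs5, a pericyte marker, 8957 to 16443, but Cldn5 of endothelial junctions (10089 to 21344), the myelin gene Mbp (21900 to 38431), the connexin Gja1, listed here under astrocytes (7067 to 17742), and Csf1r of microglia and macrophages (7636 to 14481) were bright on every array too. Not all markers of those cells were: the myelin gene Mog never exceeded 50.7, and among microglial markers Aif1 never exceeded 46.4, Itgam 59.6, P2ry12 94.9, Cx3cr1 132 and Cd68 134. Among astrocyte markers Sox9 never exceeded 88.3, Gfap 398 and Aldh1l1 495. Of the 15 pericyte markers summed per array, Anpep never exceeded 50.3; the neuronal markers Tubb3 and Nefm, the fibroblast marker Dpt and 5 of 9 lymphocyte markers stayed under 50 on every array. In bulk RNA of this kind, fewer cells of a type and less RNA per cell cannot be told apart. Arrays H and I, both Notch3 +/-, stood apart from the rest: pairs of arrays that held either correlated at r between 0.920 and 0.948, and pairs of the other 7 arrays at 0.943 to 0.968. The letters nearly coincide with genotype, and the titles do not say what they stand for. List medians are given without H and I beside those with them where they differed by over 1.5 times or in sign; the median of all genes without them was 0.00.

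Few transcripts passed an adjusted p of 0.05 by limma, which does not show that few differed. In simulated data the brain fit recovered 46% of probe sets changed 2-fold and 6% of those changed 1.5-fold. At an unadjusted limma p under 0.05, 1035 probe sets were lower and 1080 higher. Of 22519 probe sets tested, 27 were lower in Notch3 -/- at an adjusted p under 0.05 by limma (0.12% of those tested). On the higher side 5 passed (0.0222%). A transcript past that threshold is said here to have been called or to have changed. Named genes numbered 24 on the lower side and 4 on the higher, and 2 of the probe sets could not be named here. The genotypes did not overlap in any of the 32. Over all probe sets tested, the Notch3 -/- arrays lay wholly below in 1.85% and wholly above in 1.46%. Without regard to adjustment, 5.07% of 12050 genes at their brightest tested probe set were lower and 4.65% higher at an unadjusted p under 0.05, the shares against which such counts in a list are read. Differences as such were balanced: 67 probe sets were under -1 and 69 over 1, and the median was 0.01.

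**Figure D1:**
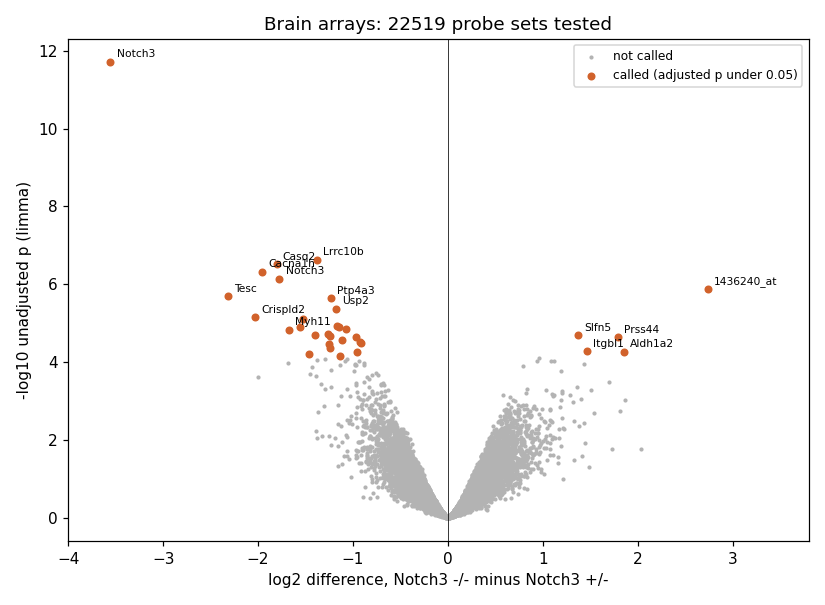
Log2 difference between Notch3 -/- and Notch3 +/- brain arrays (horizontal) against the -log10 of the unadjusted limma p (vertical) for 22519 probe sets; coloured points are the 32 called. The brighter Notch3 probe set lies far from all others on the left, and 5 of the 32 lie on the right.

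Notch3 itself checked the labels. Its brighter probe set read 2775, 2558, 2326 and 2805 in Notch3 +/- arrays E, G, H and I and 228, 150, 249, 217 and 206 in Notch3 -/- arrays A, B, C, D and F, and this order of arrays is kept below. The dimmer one read 183, 166, 148 and 165 against 66.6, 31.9, 26.7, 37.5 and 29.8. Neither overlapped between genotypes (log2 -3.56 and -1.77; limma adjusted p = 4.31e-08 and 0.00325), and the signal left in Notch3 -/- was above 150 on every array at the brighter probe set. The sources used here do not say whether the probes lie within the disrupted stretch of the gene.

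Myosin and its regulators were the part of the contractile machinery with the most calls. Myh11, the heavy chain of smooth muscle myosin, read 3792, 2608, 4093 and 2437 against 1022, 1502, 1257, 859 and 541. Its light chain Myl9 read 3343, 2780, 4636 and 2561 against 1200, 1850, 1346, 1444 and 1069. Array H was the highest Notch3 +/- array for both and array B the highest Notch3 -/- array. The log2 difference was -1.67 (SE 0.26) for Myh11 and -1.25 (SE 0.20) for Myl9, with limma adjusted p of 0.0208 and 0.0233.

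The kinase and a phosphatase subunit that act on the light chain fell with it. Mylk, the myosin light chain kinase, read 4903, 3998, 4666 and 3557 against 2249, 2252, 2634, 2147 and 1898 (log2 -0.93, SE 0.16, limma adjusted p = 0.0285). Ppp1r12c, of the family of targeting subunits of myosin phosphatase, read 252, 352, 341 and 343 against 151, 176, 165, 154 and 162 (log2 -0.92, SE 0.15, limma adjusted p = 0.0295). These were the smallest differences called, and the Notch3 -/- arrays of Ppp1r12c lay between 151 and 176. Other probe sets of both genes were lower but not called: Mylk read -0.58 and -0.38 at 2 more and Ppp1r12c -0.35 at 1 more. Ppp1r12b, the related subunit of smooth muscle, read 1511, 1091, 973 and 824 against 518, 565, 590, 612 and 426, without overlap (log2 -0.97). It fell just short of the threshold and was not called (limma adjusted p = 0.0548).

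Of 17 tested genes of the myosin list, 4 were called lower (Myh11, Myl9, Mylk and Ppp1r12c) and 15 were lower, with a median of -0.42. Among all 12050 genes at their brightest tested probe set 0.183% were called lower, 48.9% were lower and the median was 0.01. The 4 calls were 0 by limma without array G, H, A or D, 1 without F and 2 without B or C, although 8 to 10 of the genes had a lower value at an unadjusted p under 0.05 with any 1 array left out. Over these omissions the list's median stayed between -0.47 and -0.38, and it was -0.42 without both H and I.

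Thin-filament and dense-body genes were lower as well. Tagln, a calponin-related actin-binding protein, read 3576, 3326, 2967 and 2557 against 651, 1481, 1218, 1399 and 729 (log2 -1.56, SE 0.24, limma adjusted p = 0.0204). Smtn, the cytoskeletal protein smoothelin of contractile smooth muscle, read 515, 436, 652 and 447 against 182, 265, 247, 227 and 176 (log2 -1.16, SE 0.18, limma adjusted p = 0.0204). For both, Notch3 -/- arrays A and F were the lowest pair.

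Flna, the actin crosslinker filamin A, read 2575, 2337, 1990 and 2256 against 781, 1299, 1107, 1194 and 834 (log2 -1.14, SE 0.18, limma adjusted p = 0.0204). Asb2, the substrate-binding subunit of a ubiquitin ligase that is known to target filamins, read 377, 252, 428 and 277 against 152, 172, 120, 133 and 136 (log2 -1.12, SE 0.18, limma adjusted p = 0.0264). Crip1, a small LIM-domain protein, read 4757, 2557, 4237 and 2598 against 1405, 1259, 1166, 1528 and 1842 (log2 -1.25, SE 0.21, limma adjusted p = 0.0295). For Crip1 and Asb2 the Notch3 +/- arrays fell into a high pair, E and H, and a low pair, G and I, and both pairs lay above all Notch3 -/- arrays.

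Genes of the same filaments that were not called show how the group spread. Acta2 read 17191, 17558, 30846 and 16729 against 12265, 15262, 12241, 15039 and 9728: the arrays did not overlap, but the difference was -0.64 (limma adjusted p = 0.352), and -0.45 without H and I. Actg2, the other smooth muscle actin, had a difference of -1.24 (limma adjusted p = 0.131), the tropomyosin Tpm1 -0.98 (0.0548), the actin-bundling palladin gene Palld -0.97 (0.0548) and Tln1, which links integrins to actin, -0.99 (0.0696), all without overlap. Itga7, a laminin-binding integrin of muscle, differed by -0.71 with overlap. Of 17 actin and thin-filament genes tested 2 were called lower, 14 were lower and the median was -0.64; of 23 dense-body, adhesion and intermediate-filament genes 2 were called lower, 18 were lower and the median was -0.31. The actin calls numbered 0 by limma without H (11 to 12 genes lower at an unadjusted p under 0.05 with any 1 array left out) and 1 without G or D, and the dense-body calls 1 without E, G, H, A, C, D or F. Both lists had 0 calls by limma without H and I together, with 10 and 7 genes lower at an unadjusted p under 0.05 and medians of -0.56 and -0.28.

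**Figure D2:**
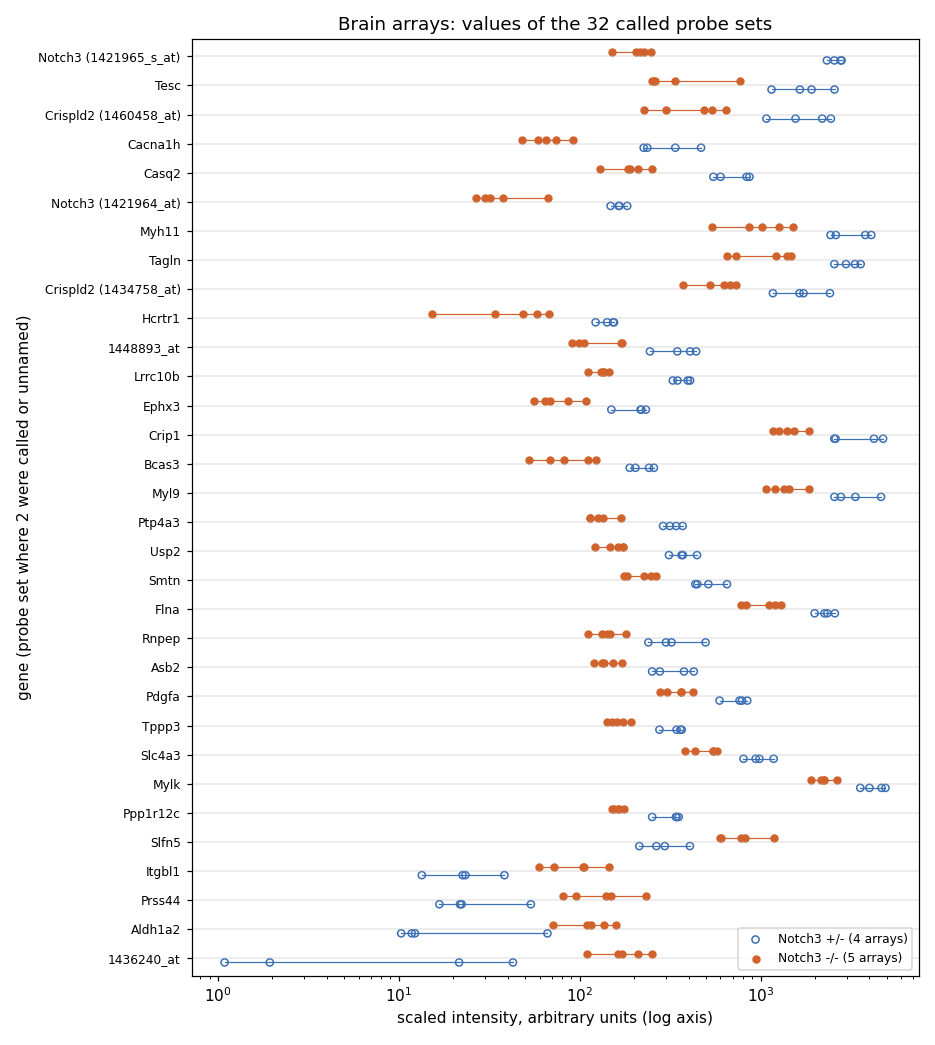
Scaled intensity (log axis) of the 32 called probe sets on each of the 4 Notch3 +/- arrays (open) and 5 Notch3 -/- arrays (filled), ordered by log2 difference. Lines span each genotype's arrays; the spans do not meet in any of the 32, and the 5 higher probe sets, at the bottom, lie mostly under 300.

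Calcium handling gave some of the clearest separations between genotypes. Casq2, which buffers calcium inside the sarcoplasmic reticulum, read 548, 868, 601 and 837 against 129, 189, 211, 184 and 252 (log2 -1.80, SE 0.20, limma adjusted p = 0.0023). Cacna1h, the pore of a T-type calcium channel, read 338, 236, 469 and 226 against 74.2, 58.8, 92.3, 65.2 and 48.2 (log2 -1.96, SE 0.23, limma adjusted p = 0.0027). Tesc, the calcium-binding protein tescalcin, read 2564, 1649, 1914 and 1150 against 259, 765, 261, 251 and 338 (log2 -2.31, SE 0.30, limma adjusted p = 0.00641). In each the lowest Notch3 +/- array was above 1.5 times the highest Notch3 -/- array, and for Tesc array B alone kept the Notch3 -/- range wide. A second, dim probe set read -0.55 for Cacna1h and -1.19 for Tesc, both under the brightness filter.

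Other reticulum genes followed without passing. Srl, which encodes sarcalumenin, another luminal calcium-binding protein, read 787, 608, 893 and 436 against 182, 343, 303, 295 and 149 (log2 -1.38, limma adjusted p = 0.0521). Pln, the inhibitor of the reticulum calcium pump, read 3079, 2762, 2468 and 1634 against 1140, 1365, 1182, 1255 and 812 (log2 -1.08, limma adjusted p = 0.0521). Jph2, the junctophilin that ties the reticulum to the cell membrane, differed by -0.88 (limma adjusted p = 0.163). None of these 3 overlapped between genotypes; Pln passed without H and I together (-1.35, limma adjusted p = 0.0258).

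Of 15 tested genes of sarcoplasmic reticulum calcium handling 1 was called, 12 were lower and the median was -0.20; of 11 voltage-gated calcium channel genes and regulators 1 was called, 9 were lower and the median was -0.32. The reticulum calls numbered 3 without array I and 2 without H and I. Cacna1g, the second T-type channel on the list, read 116, 137, 199 and 151 against 93.2, 58.0, 49.7, 69.2 and 101 (log2 -0.90, limma adjusted p = 0.188), and Rrad, a small GTPase that inhibits calcium channels, 1940, 1657, 2577 and 1534 against 1190, 1256, 1156, 982 and 846 (log2 -0.80, limma adjusted p = 0.15). The L-type channel Cacna1d went the other way, at 0.38 (limma adjusted p = 0.501). All 3 were without overlap.

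Ion transport outside calcium gave a single call. Slc4a3, which exchanges chloride for bicarbonate, read 986, 939, 1181 and 805 against 546, 432, 548, 572 and 381 (log2 -0.96, SE 0.17, limma adjusted p = 0.0415), and its second probe set -0.82 (0.326). No potassium channel was called among 13 tested (8 lower, median -0.18, and 0.15 without H and I) and no pump or exchanger of the fixed list among 6 (5 lower, median -0.36); both counts of 0 are by limma, with 3 and 2 genes lower at an unadjusted p under 0.05. Kcna5, a voltage-gated potassium channel, differed by -0.89 (limma adjusted p = 0.291), the channel subunit Kcnab1 by -0.74 (0.425) and the sodium pump subunit Atp1b1 by -0.72 (0.326), all with overlap; without H and I Kcnab1 stood at -1.33 and Atp1b1 at -1.11. For cyclic nucleotide relaxation 9 of 17 were lower with a median of -0.01 (-0.21 without H and I), and 3 lower and 1 higher at an unadjusted p under 0.05; the guanylate cyclase subunits Gucy1a1 (-0.37) and Gucy1b1 (-0.61) were not called.

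Promoter sequence was examined because both RBPJ and SRF bind known motifs. Of the 28 named called genes 22 had entries in the RefSeq promoter table (assembly GRCm38.p6), 26 entries in all. Each was a window from 250 bases before to 50 bases after a transcription start. Myh11, Tagln, Cacna1h, Ptp4a3, Tppp3 and Prss44 had no entry and were not searched. The 23 windows of lower genes came from 19 genes, some with more than 1 window. On both strands, the RBPJ core GTGGGAA was found in 1 of the 23 windows of lower genes (4.35%), against 6.38% of all 32851 windows. The CArG box was found in 2 of those 23 (8.70%), against 1.63% of all windows. Neither was found in the 3 windows of higher genes. The 250 bases before the start are shown for the 3 genes with a match, 5′ to 3′ on the gene's strand with the match in capitals: a CArG box for Myl9 (plus strand, chr2:156775214-156775463) and for Asb2 (minus strand, chr12:103356002-103356251), and the RBPJ core for Slc4a3 (plus strand, chr1:75546212-75546461).
Myl9: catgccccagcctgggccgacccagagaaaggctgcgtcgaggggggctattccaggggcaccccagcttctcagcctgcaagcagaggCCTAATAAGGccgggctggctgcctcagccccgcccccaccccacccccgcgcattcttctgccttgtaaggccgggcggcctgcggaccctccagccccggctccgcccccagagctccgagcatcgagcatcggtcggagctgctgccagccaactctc
Asb2: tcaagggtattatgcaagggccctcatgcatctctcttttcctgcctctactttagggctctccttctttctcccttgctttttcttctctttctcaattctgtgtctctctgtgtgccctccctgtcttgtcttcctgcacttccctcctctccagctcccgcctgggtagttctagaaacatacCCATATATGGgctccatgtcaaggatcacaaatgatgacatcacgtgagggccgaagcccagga
Slc4a3: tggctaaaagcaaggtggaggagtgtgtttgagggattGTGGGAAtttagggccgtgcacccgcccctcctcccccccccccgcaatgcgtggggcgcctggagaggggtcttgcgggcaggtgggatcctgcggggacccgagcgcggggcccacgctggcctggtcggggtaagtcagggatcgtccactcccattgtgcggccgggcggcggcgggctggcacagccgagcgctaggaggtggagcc
The match begins 161 bases before the start in Myl9, 64 in Asb2 and 212 in Slc4a3. A match is a description of the letters and not a measured site of binding.

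Secreted factors and receptors were among the lower genes too. Crispld2, a secreted protein of the CRISP family, was called at 2 probe sets. The first read 2449, 1561, 2191 and 1077 against 648, 542, 485, 301 and 227 (log2 -2.03, SE 0.30, limma adjusted p = 0.0158) and the second 2417, 1727, 1641 and 1170 against 682, 729, 627, 525 and 373 (log2 -1.53, SE 0.23, limma adjusted p = 0.0159). Another, much brighter probe set fell short at -1.68 (limma adjusted p = 0.0546), its mean being 15746 ± 6698 (SD, n = 4) with 1 copy of Notch3 and 4791 ± 1572 (SD, n = 5) with none. All 3 probe sets were lower, with array F the lowest Notch3 -/- array at both called probe sets.

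Pdgfa, a ligand of platelet-derived growth factor receptors, read 844, 765, 790 and 593 against 305, 426, 361, 364 and 278 (log2 -1.08, SE 0.17, limma adjusted p = 0.0205), with no overlap. Its second probe set differed by -0.31 and was not called (0.655). It was the 1 call among 20 genes of PDGF, angiopoietin and VEGF signalling, of which 9 were lower (median 0.09). Pdgfrb, the PDGF receptor of mural cells, read 5321, 10678, 17637 and 7272 against 6509, 7738, 6633, 6219 and 6454, so that the Notch3 -/- arrays lay close together within a wide Notch3 +/- range (log2 -0.46, limma adjusted p = 0.611; -0.17 without H and I). Nrp1, a VEGF co-receptor, differed by 0.45 without overlap (limma adjusted p = 0.382).

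Hcrtr1, the first orexin receptor, read 153, 142, 155 and 123 against 34.0, 48.9, 57.9, 68.0 and 15.2 (log2 -1.46, SE 0.26, limma adjusted p = 0.0437). It was the 1 call among 13 vasoactive receptors tested, 8 of them lower with a median of -0.26 (-0.09 without H and I), and it was lost on leaving out any array but F (limma adjusted p up to 0.137). Gpr20, an orphan receptor, read 775, 488, 846 and 610 against 203, 415, 248, 383 and 190 (log2 -1.23, limma adjusted p = 0.0679), without overlap. Among 18 genes of RGS and sphingosine phosphate signalling 9 were lower, with a median of -0.02 (0.01 without H and I) and 0 called by limma (4 lower and 1 higher at an unadjusted p under 0.05); S1pr3, a receptor of that lipid, differed by -0.40 with overlap.

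The remaining lower genes encode enzymes, cytoskeletal proteins and proteins of less known function. Lrrc10b, a leucine-rich repeat protein, had the tightest groups, at 408, 327, 396 and 348 against 135, 145, 132, 137 and 112 (log2 -1.38, SE 0.15, limma adjusted p = 0.0023). Usp2, a deubiquitinating enzyme, read 372, 312, 445 and 366 against 174, 164, 148, 174 and 122 (log2 -1.18, SE 0.16, limma adjusted p = 0.0107). A second probe set of Usp2 with similar brightness differed by -0.32 and was not called (0.668). Ptp4a3, a phosphatase of the PRL family, read 289, 342, 315 and 371 against 134, 114, 127, 170 and 113 (log2 -1.23, SE 0.16, limma adjusted p = 0.00641), and -0.14 at its dim second probe set. None of the called probe sets of these 3 genes overlapped between genotypes.

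Tppp3, of the tubulin polymerisation-promoting family, read 361, 276, 343 and 366 against 162, 152, 192, 174 and 141 (log2 -0.97, SE 0.16, limma adjusted p = 0.0233). Rnpep, an aminopeptidase that removes basic residues, read 240, 496, 300.0 and 322 against 180, 147, 111, 141 and 132 (log2 -1.13, SE 0.20, limma adjusted p = 0.0473). Bcas3, linked to cytoskeleton and cell migration, read 189, 203, 257 and 242 against 68.2, 52.5, 81.7, 123 and 112 (log2 -1.25, SE 0.22, limma adjusted p = 0.0367). Array G stood above the other Notch3 +/- arrays for Rnpep, and the genotypes did not overlap for any of the 3. The probe set 1448893_at, without a gene name here, was also called lower, at 245, 347, 408 and 441 against 170, 99.6, 106, 90.6 and 172 (log2 -1.40, limma adjusted p = 0.0233).

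Ephx3, an epoxide hydrolase that lies next but 1 to Notch3 in the RefSeq gene order, read 217, 219, 232 and 150 against 108, 86.7, 64.3, 56.2 and 68.6 (log2 -1.26, SE 0.20, limma adjusted p = 0.0233), without overlap. Of the 20 genes nearest to Notch3, 10 on each side, 6 had a tested probe set, and Ephx3 was the 1 called. The others ranged from -0.19 to 0.63, with Hsf2bp at the top (limma adjusted p = 0.469).

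Within genotypes no array was the extreme one throughout the 27 called lower probe sets. Array F was the lowest Notch3 -/- array in 14 of 27 and array B the highest in 11. Among Notch3 +/- arrays I was the lowest in 12, while E and H were the highest in 10 each and E the lowest in 6. Of the 28 named genes called in either direction, 14 had more than 1 probe set, which gave 18 probe sets that were not called. Of these 14 had the direction of the called one; among the 10 bright enough to be tested 9 did, the exception belonging to Prss44.

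The higher transcripts were mostly dim in Notch3 +/- cells, and they were few: 3 of 12050 genes at their brightest tested probe set were called higher (0.0249%), since Prss44 was called at a dimmer one. Of the 5 probe sets called higher 4 had a Notch3 +/- level under the brightness filter, which stood at an intensity of 43.2, and passed it through their Notch3 -/- arrays, so that to be tested at all they had to be higher there. The exception was Slfn5. Among those called lower, the dimmer Notch3 probe set and Hcrtr1 were under that value in Notch3 -/- cells and passed through Notch3 +/-. Slfn5, a Schlafen protein induced by interferon, was the brightest of them, at 407, 214, 296 and 266 against 1179, 780, 820, 601 and 601 (log2 1.37, SE 0.22, limma adjusted p = 0.0233). Prss44, a serine protease, read 53.7, 21.8, 16.8 and 22.3 against 232, 139, 81.1, 150 and 95.9 (log2 1.79, SE 0.29, limma adjusted p = 0.0233), while its brighter tested probe set differed by -0.21 and 2 more under the filter by -0.43 and -0.23. The probe sets of Prss44 thus disagreed in sign. Other probe sets of Slfn5 read 0.28 and 0.72.

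Aldh1a2, which makes retinoic acid, read 12.3, 66.4, 10.3 and 11.8 against 115, 136, 159, 70.8 and 110 (log2 1.85, SE 0.33, limma adjusted p = 0.0415), so that array G nearly met array D. Itgbl1, an integrin-like secreted protein, read 38.4, 22.5, 23.3 and 13.4 against 104, 72.5, 106, 145 and 59.3 (log2 1.47, SE 0.26, limma adjusted p = 0.0415). The largest rise of all belonged to the probe set 1436240_at, without a gene name here, at 1.94, 1.09, 42.8 and 21.6 against 164, 110, 253, 173 and 209 (log2 2.74, SE 0.35, limma adjusted p = 0.00482), and 3.45 without H and I, which were the higher Notch3 +/- arrays there.

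Next below the threshold on the higher side were the adhesion molecule Alcam at 0.96 (limma adjusted p = 0.0518), Odr4 at 0.94, the talin rod-domain protein Tlnrd1 at 1.09 and the splicing factor Crnkl1 at 1.12 (0.0521 each), the peptidase Dpp4 at 1.43 (0.0548), the methyltransferase Inmt at 1.19 (0.0715), the chemokine Cxcl2 at 1.70 (0.114) and the adhesion protein Mpzl2 at 1.36 (0.131). The first 6 and Mpzl2 did not overlap between genotypes. Cxcl2 read 1766, 660, 509 and 384 against 3441, 2772, 2404, 1353 and 2020, with Notch3 +/- array E inside the Notch3 -/- range; without E its limma adjusted p was 0.00871, and without H and I the difference was 1.07 (0.436). On the lower side Ifitm1, an interferon-induced membrane protein (-0.94, limma adjusted p = 0.0521), and the carbonyl reductase Cbr2 (-1.13, 0.0548) were the closest outside the contractile and calcium genes.

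No Notch pathway gene other than Notch3 was called. Among 9 other receptors and ligands 7 were lower with a median of -0.23 (0.01 without H and I); the receptor Notch4 stood at -0.46 (limma adjusted p = 0.436) and the ligand Jag1 at -0.36 (0.555), both with overlap. Of 16 targets and nuclear factors 10 were lower with a median of -0.35. The target Heyl read 716, 800, 1285 and 711 against 554, 654, 636, 587 and 535, without overlap but with array H far above the rest (log2 -0.51, limma adjusted p = 0.402). Hes1, another target, overlapped at array B (-0.66, limma adjusted p = 0.423). Of the others on that list Nrip2, which binds nuclear receptors, read 730, 469, 601 and 281 against 140, 325, 226, 169 and 121 (log2 -1.34, limma adjusted p = 0.121; 0.0385 without array I, its lowest Notch3 +/- array) and the scaffold gene Grip2 differed by -0.54. Processing enzymes and glycosyltransferases were split, 6 lower and 7 higher, with a median of 0.03 (0.17 without H and I). None of these 3 lists held a gene called by limma; at an unadjusted p under 0.05 they held 2, 7 and 0 lower and 0, 0 and 1 higher.

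Among 19 transcription factors of mural cells 11 were lower, with a median of -0.06 (-0.21 without H and I) and 0 called by limma (4 lower at an unadjusted p under 0.05). Srf, which binds the CArG box, differed by -0.24 (limma adjusted p = 0.641), the T-box factor Tbx2 by -0.88 (0.327), and the forkhead factors Foxc1 and Foxc2 by -0.43 (0.428) and -0.76 (0.42). Of these 4 only Foxc1 did not overlap between genotypes.

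Matrix genes went in no single direction. Interstitial collagens and their enzymes had 13 of 20 higher and a median of 0.18: Col3a1 read 1011, 937, 1047 and 482 against 1227, 3329, 2289, 1810 and 1086 (log2 1.09, limma adjusted p = 0.291), Col14a1 differed by 0.56 without overlap, and Col5a2 by 1.07, or 0.50 without H and I. Of 17 proteoglycans and elastic fibre genes 9 were lower with a median of -0.05 (0.11 without H and I), although Dcn (decorin) and Efemp1 (a fibulin) each stood at 1.20; without H and I these were 0.76 and 0.61. Basement membrane genes had a median of -0.06 over 18 (-0.03 without H and I), with the laminin chain Lama5 at -0.67 without overlap (limma adjusted p = 0.168). Of the 3 lists limma called no gene. At an unadjusted p under 0.05 the collagen list held 3 lower and 6 higher. The proteoglycan list held 0 and 5, and the basement membrane list 1 and 1. In the collagen list the 3 lower were Serpinh1, Plod2 and Plod1, none of them a collagen chain. The 6 higher were the chains Col5a2, Col14a1, Col3a1, Col6a1, Col1a1 and Col6a2. The chains Col8a2 (-0.38) and Col12a1 (-0.30) were lower, at an unadjusted p over 0.05.

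The TGF-beta, BMP and retinoid lists together held 1 call, Aldh1a2. Medians were -0.03 over 16 genes of TGF-beta signalling (-0.06 without H and I) and 0.14 over 18 of BMP signalling (-0.00 without H and I), with 0 called by limma in either (2 lower and 1 higher, and 1 lower and 1 higher, at an unadjusted p under 0.05). Tgfb3, a ligand, read 904, 752, 1086 and 632 against 134, 692, 331, 390 and 291 (log2 -1.31, limma adjusted p = 0.221), with array B inside the Notch3 +/- range. Id3, a BMP target, was lower without overlap (-0.56, limma adjusted p = 0.229). Among 12 retinoid genes 7 were lower with a median of -0.03; Cyp1b1, which can also act on retinoids, stood at 1.28 (0.166) and the retinoid receptor partner Rxrb at -0.86 (0.185).

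Metabolic and stress lists held no call by limma apart from Slfn5 among 18 interferon genes (9 lower, median -0.03, and 0.21 without H and I; Gbp2, a guanylate-binding protein, 0.57). Oxidative phosphorylation genes were lower in 36 of 46 with a median of -0.11, and -0.06 without H and I, led by Uqcrc1 of complex III (-0.66, without overlap). Glycolysis and lactate genes were lower in 12 of 16 with a median of -0.10; Aldoa, an aldolase (-0.83), Ldha, which makes lactate (-0.53), and Slc16a1, which carries it across the membrane (-0.61), did not overlap. Immediate early and stress genes were lower in 19 of 24 with a median of -0.20, and -0.39 without H and I (9 genes lower at an unadjusted p under 0.05, against 6 with them), with the nuclear receptor Nr4a3 at -0.76 and the small heat shock protein Hspb1 at -0.68. Chemokines and inflammatory genes were higher in 16 of 21 with a median of 0.18, and 0.00 without H and I. Hypoxia genes had a median of 0.03 over 15 (0.02 without H and I). At an unadjusted p under 0.05 these 5 lists held, in that order, 4, 3, 6, 0 and 1 lower and 0, 0, 1, 2 and 1 higher.

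**Figure D3:**
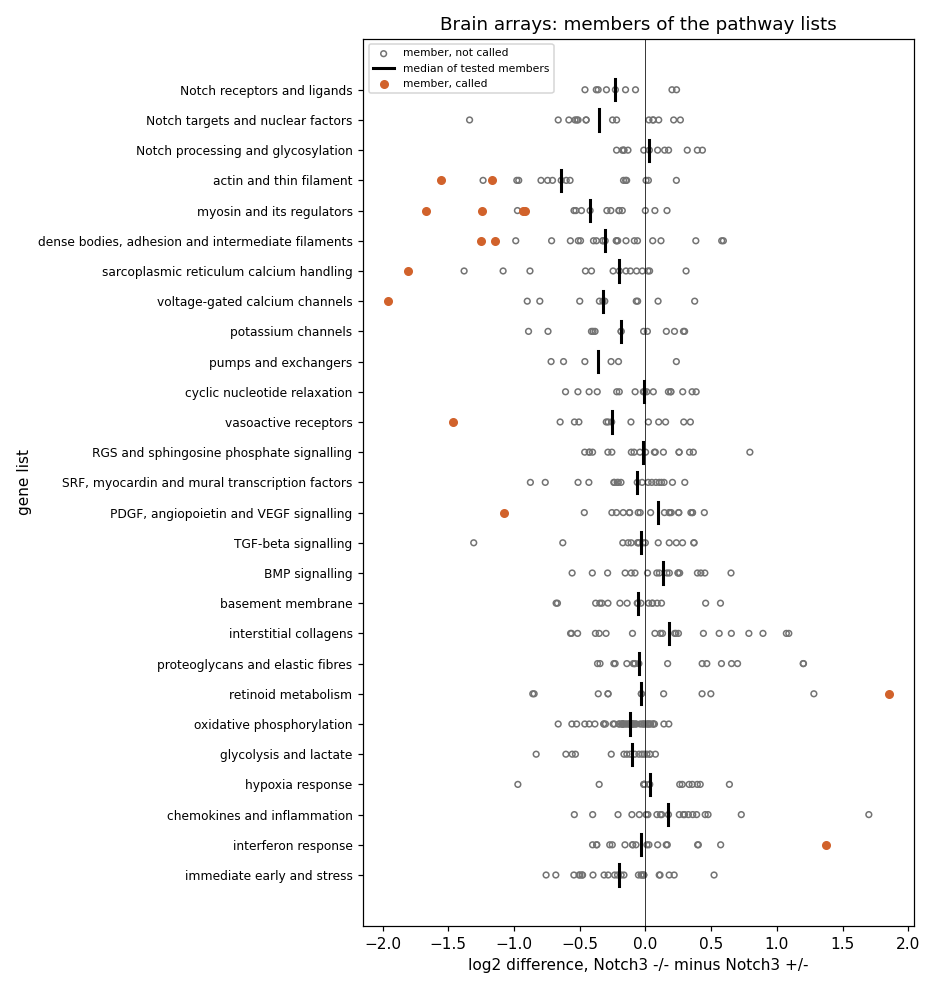
Log2 difference of every tested member of the 27 pathway lists, each gene at its brightest tested probe set; filled points were called and bars mark list medians. Actin, myosin, dense-body and calcium lists hold 10 of the filled points on the left, while most other medians lie near the 0.01 of all genes.

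Summed marker levels place these differences beside the makeup of the preparation. The smooth muscle markers include contractile genes described above as lower, so their sum is not a separate reading of that makeup. The sum over 10 smooth muscle markers ranged from 27223 to 45061 in Notch3 +/- and from 13948 to 22033 in Notch3 -/-, without overlap. Most of it came from Acta2, which was not called. Its mean was 20581 of a mean sum of 33318 in Notch3 +/-, and 12907 of 18609 in Notch3 -/-. All 10 were lower (median -0.84), and the 4 called were Myh11, Tagln, Smtn and Mylk; limma called no marker without H, 1 without G or D and 2 without A, while 8 were lower at an unadjusted p under 0.05 with any 1 array left out. The sum over 15 pericyte markers other than Notch3 overlapped, at 32937 to 66178 against 30940 to 42061; 11 of 14 tested were lower with a median of -0.45 (-0.18 without H and I), and 0 were called by limma (5 lower at an unadjusted p under 0.05). Ifitm1, also on the pericyte list, differed by -0.94 without overlap (limma adjusted p = 0.0521). By limma 1 pericyte marker was called without E, I or A, and 0 without any other single array. Rgs5 read 11728, 13693, 16443 and 12078 against 10017, 10272, 10181, 8957 and 10376, without overlap (log2 -0.43, limma adjusted p = 0.415), the hypoxia-responsive Ndufa4l2 differed by -0.97 (0.273), and Cspg4, the NG2 proteoglycan, by 0.11 (0.899).

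Other cell types varied as follows. The endothelial sum was 69288 to 88108 against 74113 to 89427 over 19 markers (median -0.04, and 0.07 without H and I). The fibroblast sum was 8716 to 15169 against 13297 to 20534 over 16 (median 0.53 over 15 tested, 11 higher, 1 of them, Aldh1a2, called; 0.47 without H and I), and it was higher in Notch3 -/- apart from the overlap of arrays E and F. At an unadjusted limma p under 0.05 the fibroblast list held 8 higher, Aldh1a2 among them, and 1 lower, Foxc2. Ogn, a small proteoglycan on that list, read 4118, 2811, 3175 and 2199 against 4387, 4907, 4996, 4996 and 4416. The oligodendrocyte sum was 31402 to 49391 against 38402 to 49416 (median 0.18, and 0.33 without H and I), with the myelin gene Mobp at 0.88; the astrocyte sum 15810 to 35328 against 22730 to 37615 (0.02, and 0.38 without H and I), with S100b at 0.75; and the microglia and macrophage sum 10207 to 17753 against 9995 to 18572 (0.09, and 0.02 without H and I). Neuronal sums were 1162 to 3194 against 1402 to 2357 (-0.01, and 0.40 without H and I), choroid plexus and ependymal sums 2017 to 8986 against 2988 to 5594 (-0.04, and -0.61 without H and I), and lymphocyte sums 366 to 509 against 341 to 618. The erythroid sum over 4 markers did not overlap, at 633 to 881 against 940 to 1355, most of it from Bpgm, an enzyme of red cells (0.64, limma adjusted p = 0.234), while the haemoglobin gene Hba-a1 never exceeded 63.8. The part of these shifts in the genotype difference was not tested. Single bright markers weighed on other sums too. Over the Notch3 +/- arrays Mbp had a mean of 27525 of the 38180 of the oligodendrocyte sum. Csf1r had 9697 of the 13140 of the microglia and macrophage sum there.

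**Figure D4:**
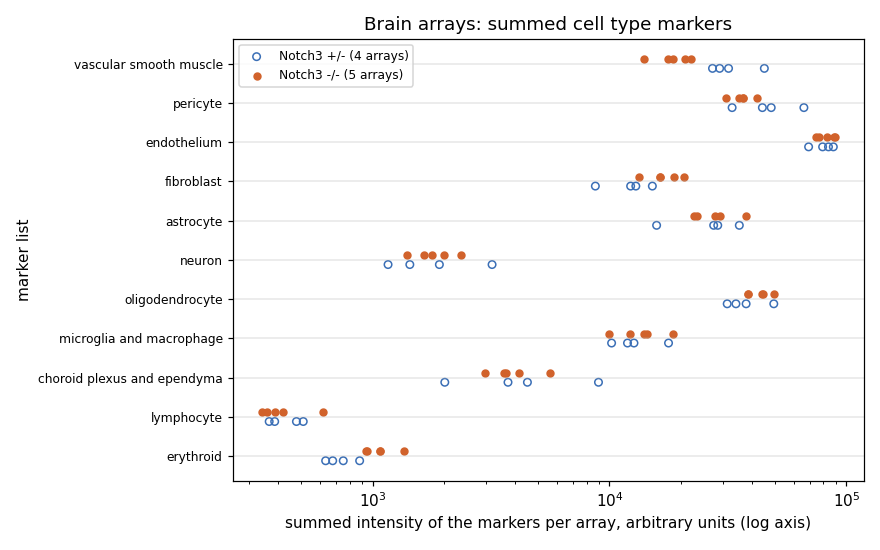
Summed intensity (log axis) of the markers of 11 cell types on each of the 4 Notch3 +/- arrays (open) and 5 Notch3 -/- arrays (filled). The smooth muscle sums, up to 22033 in Notch3 -/- and from 27223 in Notch3 +/-, and the erythroid sums are the ones whose genotypes do not overlap.

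The same probe sets were read in aorta, for which the labels do not tell whether each array was a mouse of its own, so p-values that involve them measure only the spread between these samples. Leaving out Notch3, the called lower probe sets differed between aorta genotypes by -0.44 to 0.29, with a median of 0.01 beside -0.00 for all probe sets tested. Contractile genes were bright there: in the Notch3 +/- and then the Notch3 -/- explants, Myh11 stood at 8314 ± 244 and 8636 ± 213 (SD, n = 3 for each), Myl9 8578 ± 415 and 8587 ± 776, and Flna 8996 ± 702 and 8924 ± 468. Several of the brain genes were dim in aorta instead, such as Casq2 at 22.9 ± 2.81 and 31.6 ± 5.28, Cacna1h at 5.91 ± 3.93 and 6.37 ± 4.38, and Lrrc10b at 7.01 ± 4.23 and 2.50 ± 0.22, where the pseudocount sets the log2 difference. Brain cells and aorta were also extracted differently, with Trizol for aorta by the labels.

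The difference between the genotype differences was itself tested over the 15 arrays, and 4 of 22519 probe sets passed (0.0178%). Of the genes called in brain these were Notch3, at its brighter probe set, and Casq2. Notch3 stood at -3.56 in brain and -1.78 in aorta, a difference of -1.78 (limma adjusted p = 0.0112). Its aorta values were 401 ± 47.2 against 108 ± 34.1 (SD, n = 3 each), beside 2616 ± 222 in brain Notch3 +/- (SD, n = 4). The dimmer Notch3 probe set, at -1.77 in brain and -0.66 in aorta, did not pass (difference -1.11, limma adjusted p = 0.588). Casq2 stood at -1.80 in brain and 0.29 in aorta, where it was dim (22.9 ± 2.81 against 31.6 ± 5.28, SD, n = 3 each). The difference was -2.09 (limma adjusted p = 0.0112). Since genes called in brain were chosen on the brain arrays, the test is not independent of the choice. The others that passed were not called in brain. Rrad was lower in brain and stood at 1.03 in aorta, a difference of -1.83 (limma adjusted p = 0.0204). Depp1, a target of FOXO factors, read 0.27 in brain and -1.82 in aorta, a difference of 2.10 (0.0112). Its difference depended on the pseudocount, at 3.20 with 1 and 1.17 with 64, where it did not pass (limma adjusted p = 0.179). Myh11 (-1.72), Tagln (-1.61) and Tesc (-2.40) did not pass this test, with limma adjusted p of 0.191, 0.191 and 0.151. By limma 0 probe sets passed without the aorta Notch3 +/- array 6166 (834 at an unadjusted p under 0.05), 1 without 5561 or 5558, and 7 without 5556.

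**Figure D5:**
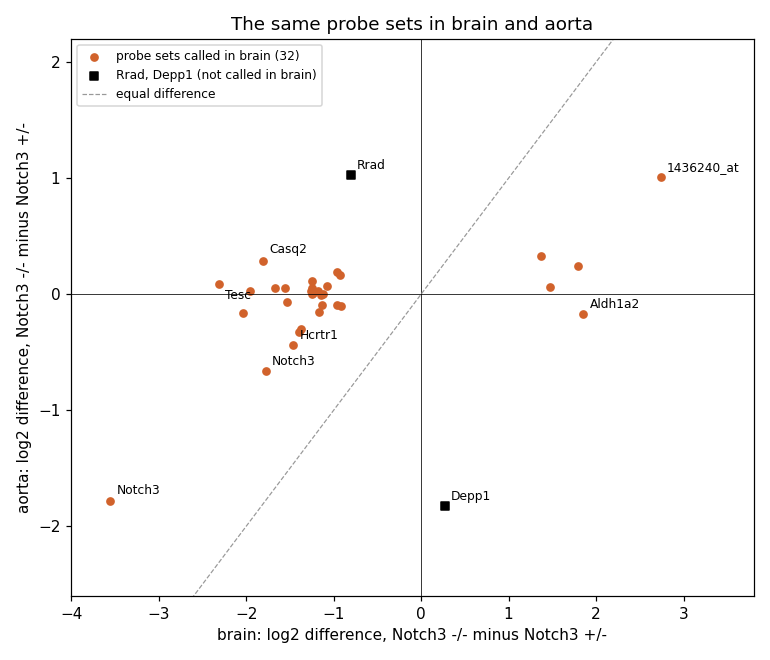
Log2 difference between genotypes in brain (horizontal) and aorta (vertical) for the 32 probe sets called in brain and for Rrad and Depp1; the dashed line marks equal differences. Apart from both Notch3 probe sets, the called lower ones lie between -0.44 and 0.29 on the aorta axis.

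How far single arrays carried the calls differed by gene. Notch3, Lrrc10b, Casq2, Cacna1h, Tesc, Ptp4a3 and Usp2 passed with any 1 array left out, with limma adjusted p of at most 0.0409 for the last 6. Crispld2 was lost only without H at its first probe set (limma adjusted p = 0.0686), Smtn without H or D, Tagln without G or H, Flna without G or F, and Myh11 on omission of A, D, G or H (limma adjusted p up to 0.0889). The other 16 named genes were lost without 5 or more of the 9 arrays in turn, with limma adjusted p up to 0.138. Ppp1r12c, for instance, passed only with all arrays or without E, Slc4a3 only with all or without I, and Rnpep only with all or without E. With H and I both left out, 19 probe sets passed, 10 of them among the 32; they included Crispld2 at -2.20 (limma adjusted p = 0.0353), Pdgfa at -1.19 (0.0418), Lrrc10b, Casq2, Cacna1h and Tesc, while Myh11 stood at -1.67 (0.0776), Tagln at -1.72 (0.0542), Mylk at -0.99 (0.0542) and Smtn at -1.07 (0.0805).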

How the data were processed

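RNA of 9 sorted brain preparations and 6 aorta explants was hybridised to Affymetrix mouse 430 2.0 arrays, with 15 µg of cRNA per brain array per the design text. The authors deposited linear intensity per probe set, scaled to a target of 150 per array, per the design text; the 2% trimmed mean was 150 on every array. The sources used here do not give the probe summarisation, background correction or genome build. Depth has no counterpart on arrays, whose number limits the precision.

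Of 45101 probe sets (64 controls left out of the tests), the platform annotation gave 34958 a single symbol, 932 more than 1 and 9211 none; by Entrez identifier, 34754 symbols matched the RefSeq gene table (GRCm38.p6) and 204 kept the platform's. Probe sets at or above the median brain brightness were fitted on log2(value + 16) with limma 3.58.1 (R 4.3.3; intensity trend, two-sided, Benjamini-Hochberg over all 22519, threshold 5%). A list takes each gene at its brightest tested probe set; a marker sum adds linear values. Named genes were Notch3, all genes called, the 8 next by p in each direction, up to 4 per list by p, and defining markers; Hsf2bp, Rrad and Depp1 were added. Members and lists were chosen with earlier results of these data known. Lists have no test. Tested on simulated data from these arrays, with 50 probe sets changed at each fold, the brain fit recovered 46% of probe sets changed 2-fold, 78% at 4-fold and 74% at 8-fold. The simulated noise was independent between probe sets, without effects shared across an array, so recovery in the real arrays can differ. Of 109 calls 7 were false. Alternatives changed pseudocount (1, 64), filter, normalization, trend, weights and arrays included.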

Additional observations from a re-analysis of the deposited data

Results flagged for a closer look

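Of 86 groups of arrays examined (each called probe set and marker sum in each genotype), 5 held an array far from the others by Dixon's criterion, where chance gives about 1 in 20. Tesc read 765 in Notch3 -/- array B, Ephx3 150 in Notch3 +/- array I, Ppp1r12c 252 in Notch3 +/- array E and Aldh1a2 66.4 in Notch3 +/- array G, and the lymphocyte marker sum was 618 in Notch3 -/- array A.

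The genotype difference itself differed between brain and aorta by a test over the 15 arrays for the brighter Notch3 probe set (-1.78, limma adjusted p = 0.0112), Casq2 (-2.09, 0.0112), Rrad (-1.83, 0.0204) and Depp1 (2.10, 0.0112). Over 19 other settings of that test Notch3 passed in 17, Casq2 and Depp1 in 16 each and Rrad in 12.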

How the results depend on the processing

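Probe sets called lower numbered 27, and 43 with a pseudocount of 64, 17 without the brightness filter, 42 with array weights, 91 with all 15 arrays in the fit, 15 without H and I, and 9 to 30 with 1 array left out. Those called higher numbered 5, and 1 without the filter, 10 with array weights, 39 with all 15 arrays, and 1 to 11 with 1 array left out. Differences between tissues numbered 4, and 0 (with 834 at an unadjusted p under 0.05) to 7 with 1 array left out. All 32 were among the calls with a pseudocount of 64 and with 15 arrays, 16 without the filter and 30 with array weights. Leaving out H and I was chosen after seeing the data. Over 19 settings Notch3, Lrrc10b, Casq2, Cacna1h and Tesc passed in each, and no called gene changed direction; of 68 other genes named, 30 passed in some setting. Cspg4 (0.11) changed sign once, ranging from -0.052 (without I) to 0.23 (without B) with 1 array left out. List medians moved beyond the spread of arrays in 14 of 570 cases. Scaling changed the median of all probe sets from 0.01 to 0.03 at most. No paired analysis was possible because the arrays of the genotypes share no letters or numbers. In simulated data 6% of probe sets changed 1.5-fold were recovered, so smaller differences were mostly out of reach of 9 arrays.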
